A study of Sus scrofa with 6 samples.

Results

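Messenger RNA of 7 genes at the centre of amyloid, tau and synuclein biology was examined in brain RNA sequencing libraries of young pigs. The genes were taken from a list of 8 symbols, APP, APOE, CLU, PSEN2, BACE1, MAPT, SNCB and PRNP, by matching Ensembl pig gene identifiers to symbols. A row was matched for 7 of the 8, each by 1 row, out of 18225 genes in the table, and PRNP was not analysed here. Libraries came from the brains of 3 Rongchang pigs, a domesticated Chinese breed, and 3 wild boars, 1 library per animal, all 210 days old. The labels give no sex, brain region, diet or treatment, and no genotype beyond the breed or wild origin. They say nothing of litter or source either, and p-values reflect the variation among these 6 libraries alone. Values are deposited FPKM (fragments counted per kilobase of transcript and per unit of mapped fragments), a scale per length. Levels of different genes are set side by side on it. The annotation is not given, so such comparisons rest on transcript lengths that could not be checked. The strand of each fragment was marked in the libraries, but no source used here gives the strand setting of the quantification. Whether reads of a gene and of an antisense partner that overlaps it were kept apart is therefore not known.

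APP encodes the amyloid precursor protein, a membrane protein of neurons and other cells. BACE1 encodes the beta-secretase that makes the first cut towards the amyloid-beta peptide, and PSEN2 a presenilin, the catalytic subunit of gamma-secretase, which makes the second. APOE and CLU (clusterin) encode secreted lipid carriers and chaperones that bind amyloid-beta and that astrocytes produce in quantity. MAPT encodes tau, which binds axonal microtubules, and SNCB encodes beta-synuclein, a presynaptic protein of the synuclein family that aggregates poorly. All of them are ordinary genes of the healthy brain, and their levels in young animals say nothing by themselves about disease.

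Total FPKM per library ranged from 568921 to 687359, of which mitochondrially encoded messenger RNAs made up 30.0% to 46.8%, and sequencing depth is unknown for such values. The mitochondrial share was 30.0% in Rongchang 3 and 39.9% to 46.8% in the others. Markers of neurons and astrocytes were abundant in all 6 libraries: SNAP25 of the synaptic vesicle fusion machinery ranged from 786 to 1156 FPKM, and the astrocyte gene ALDOC from 597 to 908. On the first principal component (38.8% of the variance) Rongchang 2 and wild boar 2 lay apart from the rest, at 30.5 and 31.6 against −19.9 to −10.5. Values are therefore also given without them where a result touches on them. On the second component (24.2%) the breeds lay apart, Rongchang from −31.35 (Rongchang 3) to −1.98 and wild boar from 11.86 to 16.88. Over all genes tested the median difference, wild boar minus Rongchang, was −0.13 log2 units, a shift that every difference from the deposited values below includes.

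The 7 genes spanned about 2 orders of magnitude. CLU was the most abundant, at 1510 ± 308 FPKM (mean ± SD, n = 6), followed by APOE at 1017 ± 268, APP at 431 ± 80.6, SNCB at 158 ± 19.9 and MAPT at 101 ± 17.5. BACE1 stood at 16.9 ± 2.48 and PSEN2 at 15.6 ± 2.71. CLU ranked between 22 and 29 among all genes of a library, APOE between 29 and 45, and APP between 60 and 128. Both enzymes ranked between 2744 and 3963, near 2 to 3 times the median gene tested (2.05 to 2.93 times for BACE1, 2.00 to 2.68 for PSEN2).

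The order from CLU to MAPT was the same in all 6 libraries: CLU exceeded APOE in 6 of 6, APOE exceeded APP in 6 of 6, APP exceeded SNCB in 6 of 6, and SNCB exceeded MAPT in 6 of 6. The ranges of CLU and APOE nevertheless overlapped across libraries (1024 to 1782 and 632 to 1346 FPKM). BACE1 and PSEN2 had no fixed order: PSEN2 was above BACE1 in 2 of 6 libraries, and their levels differed by less than the spread between libraries.

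**Figure D1:**
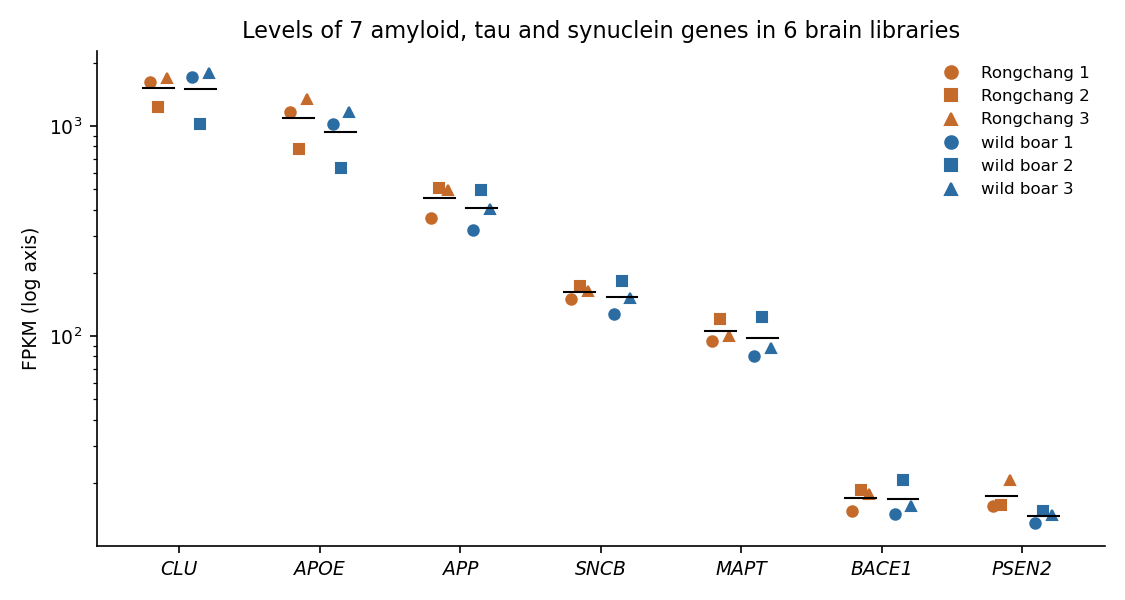
FPKM (log axis) of the 7 genes, ordered by mean level. Each point is 1 library, circles, squares and triangles are the animals numbered 1, 2 and 3, orange is Rongchang and blue is wild boar, and black lines are breed means (n = 3). CLU lies highest, with a mean of 1510 FPKM, and the enzymes BACE1 and PSEN2 lowest, at 16.9 and 15.6, the breeds overlap in every gene but PSEN2, and the squares lie lowest for CLU and APOE and highest for MAPT and SNCB in each breed.

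The precursor gene APP was at 363, 508 and 494 FPKM in Rongchang 1, 2 and 3 and at 318, 498 and 404 in wild boar 1, 2 and 3. Animals numbered 1 were lowest and those numbered 2 highest within each breed, and the breeds overlapped. The difference, wild boar minus Rongchang, was −0.17 in log2(FPKM + 1), with a standard error of 0.25 (limma, adjusted p = 0.895). As a ratio the 95% interval ran from 0.598 to 1.33. In bulk tissue, a lower value from fewer cells of a type and one from less RNA per cell cannot be told apart.

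Of the secretase genes, BACE1 read 14.6, 18.6 and 17.7 FPKM in Rongchang animals 1, 2 and 3, and 14.3, 20.6 and 15.6 in the wild boars. The breeds covered nearly the same range, with a log2 difference of −0.02 ± 0.18 (SE; limma, adjusted p = 0.981). PSEN2 read 15.5, 15.7 and 20.7 FPKM in Rongchang animals 1, 2 and 3, and 12.9, 14.7 and 14.1 in the wild boars. It was the 1 gene of the 7 whose breeds did not overlap, with all wild boars below all Rongchang pigs by a margin of 15.5 against 14.7 FPKM, and Rongchang 3 well above the other 5 libraries. Among all genes tested 12.5% showed no overlap between the breeds in either direction, 11.4% with the wild boars lower and 1.12% with them higher, so 1 of 7 is near that background. The log2 difference of PSEN2 was −0.29 ± 0.16 (SE; limma, adjusted p = 0.794), or −0.15 relative to the median gene. Without Rongchang 3 it was −0.16, and with mitochondrial genes removed −0.26. Rongchang 3 had the lowest mitochondrial share, whose part in its PSEN2 level was not tested.

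Of the amyloid-binding carriers, APOE read 1160, 776 and 1346 FPKM in Rongchang animals 1, 2 and 3, and 1017, 632 and 1172 in the wild boars. In each breed the animal numbered 2 was lowest, that numbered 3 highest, and the breeds overlapped. The log2 difference was −0.23 ± 0.33 (SE; limma, adjusted p = 0.891), with a 95% interval of the ratio from 0.507 to 1.44, the widest in log2 units of the 7 genes. CLU read 1613, 1232 and 1694 FPKM in Rongchang animals 1, 2 and 3, and 1713, 1024 and 1782 in the wild boars. Here too the animals numbered 2 were the lowest of each breed. The breed means were nearly equal, with a log2 difference of −0.04 ± 0.30 (SE; limma, adjusted p = 0.983) and an interval of the ratio from 0.601 to 1.58.

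MAPT read 95.2, 121 and 99.9 FPKM in Rongchang animals 1, 2 and 3, and 80.7, 124 and 87.8 in the wild boars. The highest value of each breed was again in the animal numbered 2, and the breeds overlapped. The log2 difference was −0.13 ± 0.21 (SE; limma, adjusted p = 0.906). SNCB read 150, 173 and 164 FPKM in Rongchang animals 1, 2 and 3, and 127, 184 and 152 in the wild boars. It varied least of the 7, with a coefficient of variation of 12.6% over the 6 libraries against 26.4% for APOE. Its log2 difference was −0.09 ± 0.20 (SE; limma, adjusted p = 0.930).

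Read together, 0 of the 7 genes passed between the breeds (limma, adjusted p from 0.794 to 0.983), where 1 of 13152 genes tested did (0.00760%). At an unadjusted p under 0.05 the count was also 0 of 7, against 5.42% of all genes tested that were lower in wild boar and 0.578% that were higher. Same-numbered libraries deviated together, and with animal number as a blocking term 17.4% of all genes reached that mark and still 0 of the 7. APP, APOE and PSEN2 were lower in the wild boar in all 3 same-numbered pairs, as were 38.5% of all genes tested, and 5.10% were higher in all 3. With the block the unadjusted p of APOE was 0.0576 in place of 0.505 and that of PSEN2 0.0507 (limma, adjusted p = 0.297 and 0.288). Without both libraries numbered 2 the 7 differences ran from −0.39 (PSEN2) to 0.08 (CLU) and again 0 passed (limma, adjusted p from 0.559 to 0.907). All 7 differences lay below 0, as did 77.9% of all genes. Their median was −0.13, the same to 2 decimals as the median gene, and 3 of the 7 lay below that gene. After each library was scaled to the same median, APOE and PSEN2 lay below 0 (−0.05 and −0.12) and the other 5 above it (0.01 to 0.14). The sign of the other 5 thus turned with the scaling. Those of APOE and PSEN2 stayed below 0 under the 4 scalings tried. APOE turned to 0.04 without wild boar 2, a setting that keeps Rongchang 2. With the block and median scaling together APOE stood at −0.05 (limma, adjusted p = 0.870). The 95% intervals of the ratio without the block reach from 0.507 (APOE) up to 1.58 (CLU). With the block they are narrower, from 0.724 to 1.01 for APOE, 0.671 to 1.001 for PSEN2, 0.754 to 1.05 for APP and 0.796 to 1.20 for CLU. The labels do not pair the animals. The block was chosen from these same data, so its p-values may be too small and its intervals too narrow. A count of 0 called does not show that the breeds are alike.

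**Figure D2:**
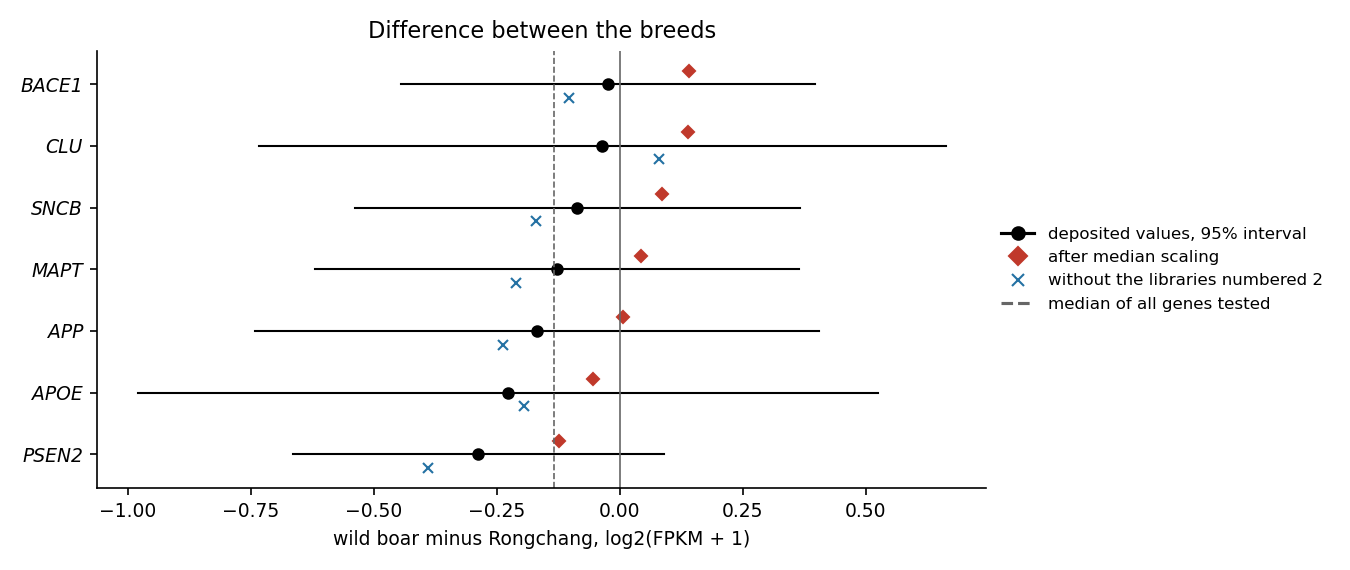
Difference of each gene between the breeds in log2(FPKM + 1), wild boar minus Rongchang. Black points and bars are the deposited values with the 95% interval of the limma fit, red diamonds the values after median scaling, blue crosses those without the 2 libraries numbered 2, and the dashed line is the median of all genes tested (−0.13). Each of the 7 intervals spans 0, and median scaling moves every gene to the right.

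The larger variation ran between animal numbers. In both breeds APP, BACE1, MAPT and SNCB were higher in the library numbered 2 than in any of the other 4 libraries, and APOE and CLU were lower in it than in any of them. MAPT averaged 122 FPKM in the 2 libraries numbered 2 and 90.9 in the other 4, a ratio of 1.35, and the ratios of APP, BACE1 and SNCB were 1.27, 1.26 and 1.20. APOE averaged 704 against 1174 FPKM, a ratio of 0.60, and CLU 1128 against 1701, a ratio of 0.66. PSEN2 followed neither pattern, with a ratio of 0.96. These libraries stand apart over the whole transcriptome: 20.7% of genes tested lay above the other 4 libraries in both and 15.6% below. What an animal number marks is not stated in the labels, and the pattern is given as a description. After median scaling APP, BACE1 and MAPT still lay above and APOE and CLU below, and SNCB no longer did.

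**Figure D3:**
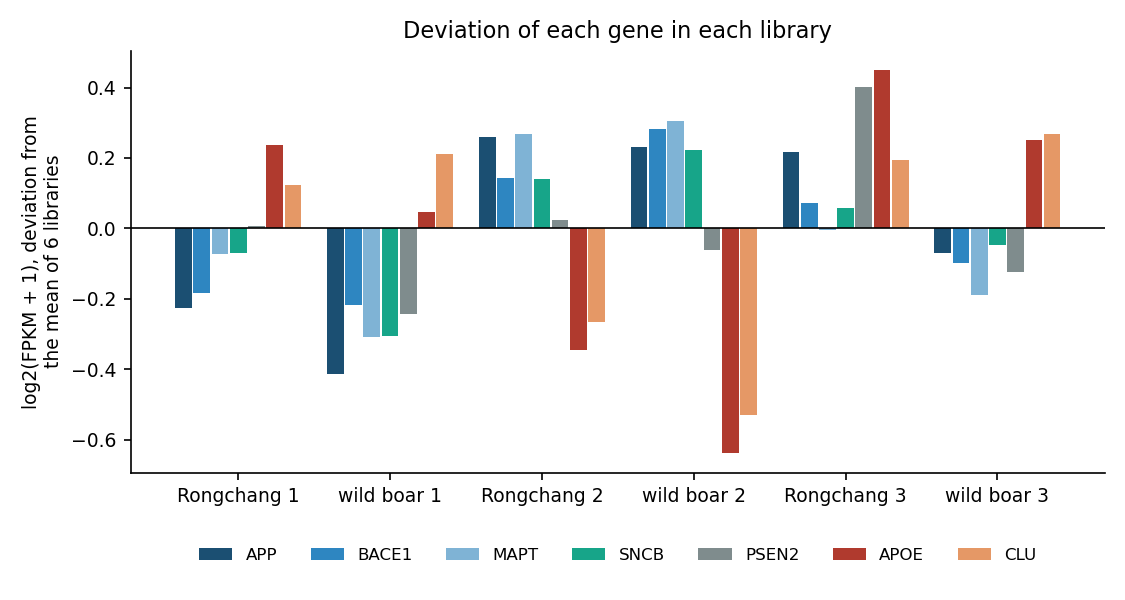
Deviation of each gene in each library from its mean over the 6 libraries, in log2(FPKM + 1), with the libraries ordered by animal number. Bars of APP, BACE1, MAPT and SNCB (blues and green) point up and those of APOE and CLU (red and orange) point down in both libraries numbered 2, while PSEN2 (grey) is highest in Rongchang 3.

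Cell type markers were read in the same libraries, against the 20.7% of all genes above and 15.6% below. Of 8 neuronal markers tested, 4 were higher in both libraries numbered 2 than in the other 4 libraries and 0 were lower. Of 6 microglia markers 3 were lower and 0 higher, and of 6 oligodendrocyte markers 2 were lower and 0 higher. Of 8 astrocyte markers 1 was lower and 0 higher, a share under that of all genes. Summed over the 8 matched of 11 neuronal markers, the level was 2050, 2710 and 2904 FPKM in Rongchang 1, 2 and 3 and 1934, 2668 and 2526 in wild boar 1, 2 and 3. The neuronal sum was thus highest in Rongchang 3 and did not set the libraries numbered 2 apart, unlike 4 of its 8 markers. A sum of FPKM follows its most abundant genes. Here these were SNAP25 (786 to 1156 FPKM) and STMN2 (348 to 532), both highest in Rongchang 3. Summed over the 8 matched of 10 astrocyte markers, the level was 1833 and 1589 FPKM in the libraries numbered 2 and 1910 to 2023 in the other 4. By breed the astrocyte sum ran from 1833 to 2023 in Rongchang and from 1589 to 1958 in wild boar. Its most abundant genes were ALDOC (597 to 908 FPKM) and GFAP (441 to 525). Of the 8 markers, 6 had log2 differences below 0 and 2 above, from −0.75 (ALDH1L1; limma, adjusted p = 0.766) to 0.11 (GFAP). ALDH1L1 was the 1 of the 8 without overlap between the breeds, where 12.5% of all genes had none. None of the markers in these lists was listed at 0 in all libraries. The haemoglobin gene HBB, a marker of blood, was at 66.9 and 57.7 FPKM in the libraries numbered 2 and between 137 and 273 in the others. The part of cell makeup or blood content in the levels of the 7 genes was not tested.

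Ratios within a library, which do not depend on its scaling, were narrower for some pairs. BACE1 stood at 0.154 to 0.178 of MAPT in all 6 libraries, MAPT at 0.578 to 0.697 of SNCB, and APOE at 0.594 to 0.795 of CLU. The ratio of APP to APOE was wider: it was 0.313, 0.655 and 0.367 in Rongchang and 0.313, 0.788 and 0.345 in wild boar. The libraries numbered 2 thus held about 2 times the APP to APOE ratio of the rest.

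Set against the summed markers of neurons, the libraries numbered 2 stood less far from the other 4 in APP, BACE1, MAPT and SNCB, at 1.04 to 1.16 times in place of 1.20 to 1.35. This comparison was chosen after the values were seen. APP was 17.8% ± 0.878 of the summed FPKM of 8 neuronal markers in Rongchang and 17.05% ± 1.43 in wild boar (SD, n = 3 each). MAPT was 4.18% ± 0.648 and 4.10% ± 0.587, SNCB 6.45% ± 0.835 and 6.49% ± 0.436, and BACE1 0.670% ± 0.0546 and 0.709% ± 0.0807. Against 8 astrocyte markers, APOE was 56.7% ± 14.1 in Rongchang and 50.6% ± 10.1 in wild boar, and CLU 78.6% ± 10.8 and 81.0% ± 14.5. Both were still lowest in the libraries numbered 2, at 0.68 and 0.76 times the other 4. The breeds overlapped in each of these 6 ratios. An exact permutation test of 3 against 3 libraries cannot go below p = 0.1 (two-sided), and the 6 values, from 0.4 to 1.0, do not show that the ratios were alike. Over the same-numbered pairs, APOE per astrocyte sum and APP per neuronal sum were lower in the wild boar in 3 of 3. BACE1 per neuronal sum was higher in 3 of 3, and the direction was mixed for CLU, MAPT and SNCB. No background share was computed for such ratios. Of single genes tested, 38.5% were lower in the wild boar in all 3 pairs and 5.10% higher. The pairs were read from these same data, and the permutation test did not use them.

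**Figure D4:**
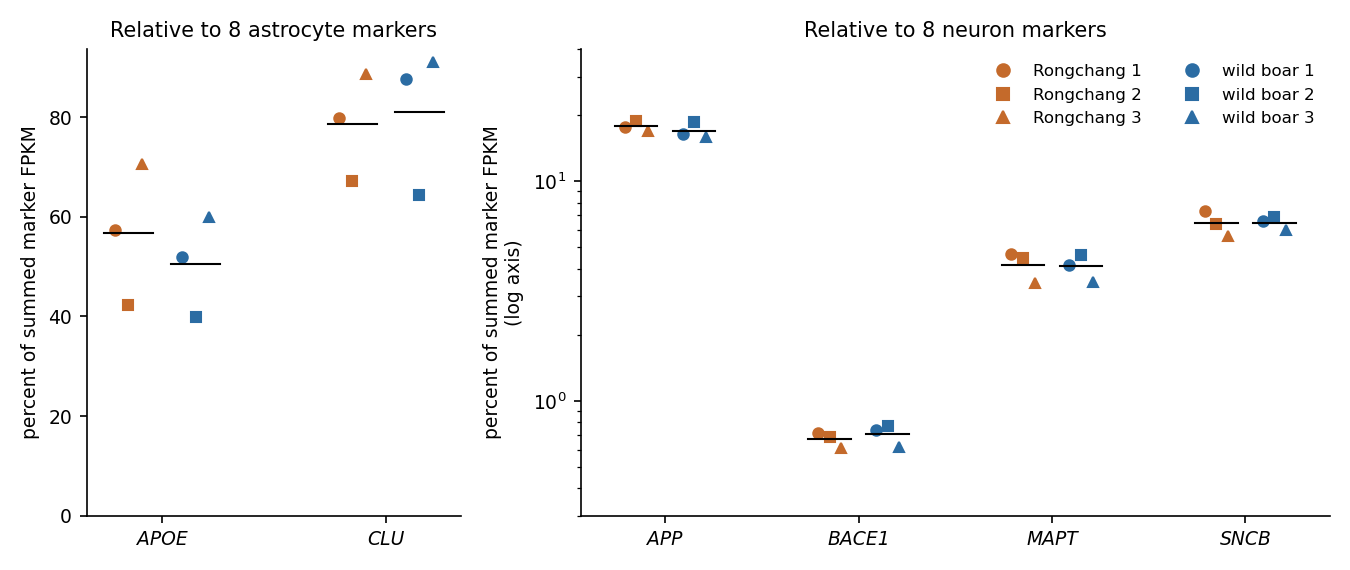
FPKM of each gene as a percentage of the summed FPKM of 8 markers in the same library, astrocyte markers for APOE and CLU (linear axis from 0) and neuronal markers for APP, BACE1, MAPT and SNCB (log axis). Points are libraries and black lines breed means (n = 3). The breeds overlap in each of the 6, and the squares, the animals numbered 2, are the lowest points of APOE and CLU in each breed.

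The relatives of APP and SNCB, named here as relatives and not by a rule of size, were compared on the same scale. APLP1, the neuronal relative of APP, read 439, 468 and 537 FPKM in the Rongchang pigs and 349, 417 and 360 in the wild boars. Its mean over the 6 libraries, 428 FPKM, was close to the 431 of APP, while APLP2, the relative found in many tissues, had a mean of 87.8. APLP1 did not overlap between the breeds (log2 difference −0.36 ± 0.20 SE; limma, adjusted p = 0.794). SNCG, the synuclein gene of peripheral neurons, was at 0.20 to 1.36 FPKM, far below the 127 to 184 of SNCB, and was not tested.

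The genes of the cutting enzymes were all of moderate level. The gamma-secretase subunits NCSTN (nicastrin) and APH1A had means of 19.4 and 21.6, and APH1A was low in the libraries numbered 2 (15.2 and 14.2 FPKM against 22.1 to 29.6). The alpha-secretase ADAM10, which cuts APP within the amyloid-beta sequence, had a mean of 16.3, near that of BACE1, and ADAM17 a mean of 7.39. Of the 17 secretase and cofactor genes listed, 10 were matched and tested, 0 passed, and 8 lay below 0 (median −0.12). The log2 differences of APH1A and ADAM17 were −0.22 and −0.21 (limma, adjusted p = 0.884 and 0.848).

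**Figure D5:**
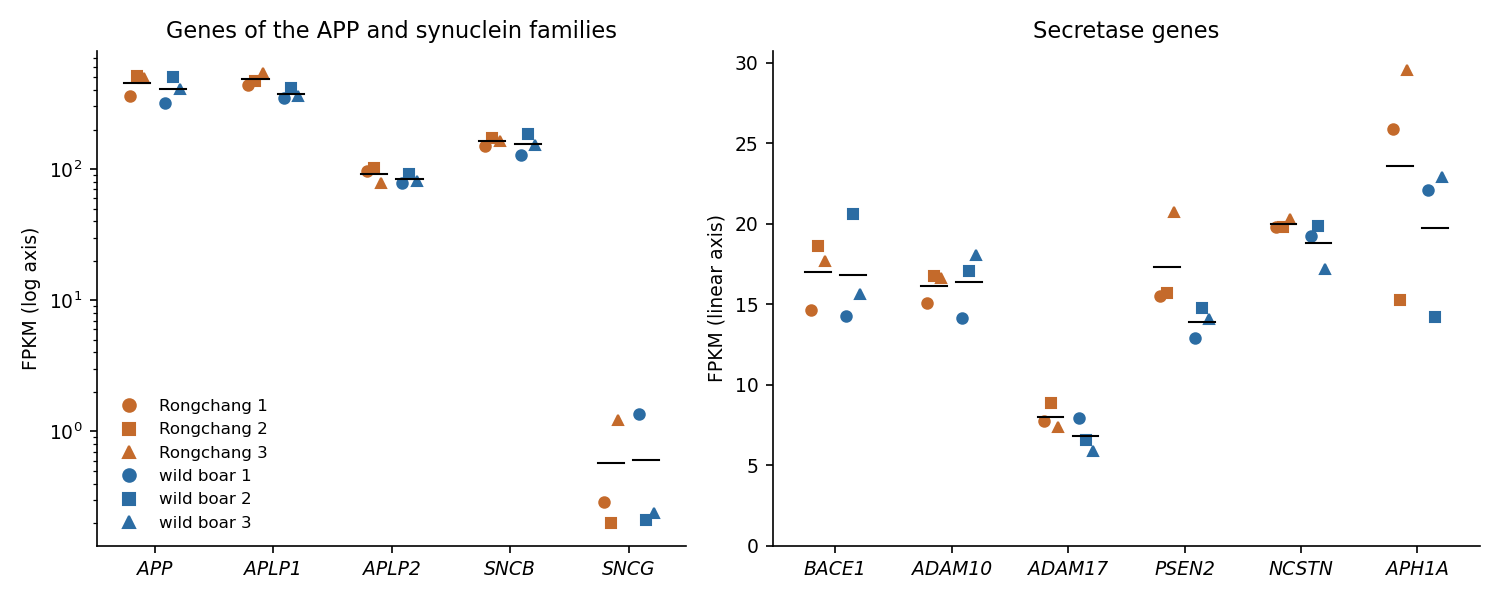
FPKM per library of genes of the APP and synuclein families (left, log axis) and of secretase genes (right, linear axis from 0). Points are libraries, black lines breed means (n = 3), with colours and shapes as in the plot of levels. APP and APLP1 lie at like levels, SNCB between 127 and 184 FPKM and SNCG between 0.20 and 1.36, and the secretase genes lie between 5.88 and 29.6 FPKM.

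Genes around the 7 in the same pathways were described from lists of adaptors, proteases, receptors, kinases and partners. The counts of a list include those of the 7 that belong to it. None of the lists held a gene that passed (limma, 0 in each), and their medians lay between −0.15 and −0.11, on either side of the −0.13 of the median gene. Between 0 and 3 genes a list did not overlap between the breeds, where 12.5% of all genes did not. Genes higher in both libraries numbered 2 than in the other 4, as MAPT was, were 12 of 23 tau kinases, phosphatases and chaperones, 7 of 17 synuclein and Parkinson disease genes, 6 of 16 apolipoprotein genes, 5 of 13 APP family genes, 5 of 11 tau and microtubule genes, 3 of 10 secretase genes, 3 of 6 prion protein partners and 0 of 8 degradation genes, against 20.7% of all genes tested. The higher share was thus common to most of these lists, in which APP, BACE1, MAPT and SNCB are themselves counted.

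Among 13 APP family and adaptor genes tested, 8 lay below 0, a smaller share than the 77.9% of all genes. In 3 of the 13 all wild boars lay below all Rongchang pigs, against 11.4% of all genes. Besides APLP1 these were MAPK8IP1, a scaffold of stress kinase signalling (58.1 ± 1.22 FPKM among Rongchang and 49.6 ± 2.04 in wild boar), and ITM2C, a membrane protein of the same family as ITM2B (326 ± 80.3 and 251 ± 16.98). Their log2 differences were −0.23 and −0.35 (limma, adjusted p = 0.824 for both).

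Of 10 matched genes of amyloid-beta degradation, 8 were tested, 6 below 0 and 2 above. The most abundant was the lysosomal protease CTSB, at 108 ± 16.5 FPKM among Rongchang and 98.4 ± 7.22 in wild boar. ACE, a peptidase of vessel walls, read 6.55, 5.31 and 4.11 FPKM in Rongchang animals 1, 2 and 3, and 9.28, 6.21 and 7.49 in the wild boars. Its log2 difference of 0.46 was the largest positive difference of the list, the breeds overlapped, and it did not pass (limma, adjusted p = 0.789). Markers of endothelial and mural cells, the cells of vessel walls, lay on the same side: 4 of the 5 matched of 9 were above 0, with a median of 0.24 against −0.13 for all genes and 0 past the threshold (limma). PECAM1 of endothelial junctions had a log2 difference of 0.38, the vascular receptor gene FLT1 0.24, and the pericyte receptor gene PDGFRB 0.49, the last without overlap, as 1.12% of all genes were in that direction. ESAM was at 0.03, and ACTA2, the most abundant of the 5, lay on the other side at −0.18. The summed level of the 5 markers was 35.1 to 43.2 FPKM in Rongchang and 40.7 to 42.4 in wild boar, and none was at 0 in all libraries. Their part in the value of ACE was not tested. MMP2 and PLAU, which cut matrix proteins and plasminogen, had differences of −0.20 and −0.17.

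In the list of apolipoproteins, lipid loading and their receptors, 16 of 20 genes were matched and tested, 12 below 0 and 10 below the median gene. After CLU and APOE the most abundant was APOD, a lipocalin of glia, with 114 ± 18.2 FPKM among Rongchang and 132 ± 28.5 in wild boar (log2 difference 0.19). ABCG1, which exports cholesterol to lipoprotein particles, read 4.57, 4.90 and 4.36 FPKM in Rongchang animals 1, 2 and 3, and 3.11, 4.31 and 3.11 in the wild boars, without overlap (−0.32; limma, adjusted p = 0.789). LRPAP1, the chaperone of lipoprotein receptors, stood at 85.3 ± 12.3 and 67.7 ± 4.37 FPKM (−0.32), also without overlap, and the APOE and reelin receptor LRP8 at 12.3 ± 0.667 and 10.97 ± 1.70 (−0.16).

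Among 11 tau and other microtubule-associated genes tested, 9 lay below 0 and 6 below the median gene. The tubulin-binding protein gene STMN1 was the most abundant, at 442, 395 and 575 FPKM among Rongchang and 433, 273 and 477 in wild boar. It was lowest in the animal numbered 2 of each breed, where MAPT was highest. DCX, a microtubule protein of young neurons, was at 5.24 ± 0.691 and 4.02 ± 0.388 FPKM (−0.31), STMN4 at 56.2 ± 14.8 and 47.4 ± 3.61 (−0.22), and MAP1S at 7.62 ± 0.462 and 6.83 ± 0.519 (−0.14).

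Of 27 tau kinases, phosphatases and chaperones, 23 were tested, 16 below 0 and 7 above. CAMK2A, a kinase of excitatory synapses, was the most abundant at 217 ± 39.1 FPKM among Rongchang and 232 ± 30.1 in wild boar (0.11). The casein kinase gene CSNK1E stood at 24.5 ± 1.80 and 19.6 ± 1.59 FPKM, without overlap (−0.31), and CDK5R1, the activator of the tau kinase CDK5, at 131 ± 14.8 and 105 ± 23.7 (−0.34). TTBK2, a tau and tubulin kinase, read 4.74, 4.81 and 4.03 FPKM in Rongchang animals 1, 2 and 3, and 2.44, 4.76 and 1.83 in the wild boars (−0.53; limma, adjusted p = 0.789). Its wild boar 2 value lay within the Rongchang range and the other 2 wild boars below it.

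Of 20 synuclein and Parkinson disease genes, 18 were matched and 17 tested, 14 below 0 and 6 below the median gene. The neuronal ubiquitin hydrolase UCHL1 was the most abundant, at 334 ± 63.9 FPKM among Rongchang and 304 ± 32.9 in wild boar (−0.12). PINK1, a kinase of mitochondrial quality control, stood at 29.1 ± 4.28 and 22.5 ± 3.51 FPKM (−0.36). VPS35, part of the retromer that returns receptors from endosomes, stood at 46.6 ± 2.43 and 40.9 ± 2.67 and did not overlap (−0.18; limma, adjusted p = 0.857). Among the partners of the prion protein, 6 of 10 listed genes were tested. All 6 lay below 0, as did 77.9% of all genes, and 3 of them lay below the median gene. The adhesion molecule NCAM1 was the most abundant (107 ± 23.0 and 103 ± 27.1 FPKM, −0.06), and the membrane scaffold FLOT2 had the largest difference (35.1 ± 2.31 and 28.4 ± 2.17, −0.30, without overlap). Its relative FLOT1 and the laminin chain LAMC1 had differences of −0.12 and −0.20.

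The genes whose pattern over the 6 libraries was most like that of each of the 7 were named by Pearson correlation of log2(FPKM + 1), among 5414 others with a symbol and a mean of at least 5 FPKM. With 6 libraries, of which 2 stand apart, many genes reach high values: between 290 and 599 exceeded 0.9 for each gene, so the names are a description of these libraries only. For APP they were PFKM (0.995) and BSCL2 (0.993), for BACE1 OSBP2 (0.997) and GABBR1 (0.996), and for PSEN2 SH3YL1 (0.995) and SFXN4 (0.994). For APOE they were CAPZA1 (0.999) and SDE2 (0.997), and for CLU PRMT7 (0.999) and RPL5 (0.994). For MAPT they were SLITRK1 and PTPRS (0.997 each), and for SNCB CREBZF (0.997) and ING2 (0.996). As an example of the likeness, the GABA receptor gene GABBR1 read 159, 210 and 195 FPKM in Rongchang animals 1, 2 and 3, and 148, 232 and 170 in the wild boars, with the same order of libraries as BACE1.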

How the data were processed

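Poly(A) RNA of 6 pig brains was sequenced as dUTP-stranded, 100-bp paired-end libraries, per the labels' protocols. TopHat2 2.0.11, Cufflinks 2.2.1 and Cuffdiff are named per the submitters' processing notes, without roles. Genome build, annotation and any scaling across libraries by the authors: not given in the sources used here. Coordinates are therefore left out. Values deposited per gene and library are taken as FPKM, from these tools and the values themselves. Low values gave no shared step between libraries (at most 23.7% of ratios under 0.15 FPKM in a window of 0.04 log2 units), so depth stayed unknown.

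Symbols matched 10937 of 18225 identifiers (60.0%). The 13152 genes that reached 1 FPKM in 3 or more libraries entered limma 3.58.1 (R 4.3.3), fitted to log2(FPKM + 1) with a mean-variance trend, two-sided, with Benjamini-Hochberg adjustment over all of them and a threshold of 0.05. Fold changes on this scale understate changes of low genes. The procedure was tested on 20 simulated tables, in which it found 49.5% of 2-fold and 89% of 4-fold changes. It also called 6.7 unchanged genes per table. Simulated libraries varied independently, unlike the deposited ones, so these shares may not hold for the real data. Members, lists and tests were chosen with earlier results of these data known. Named genes are the members and, per list, the most abundant other gene and the 3 with the smallest unadjusted p. The secretases and relatives named beyond these were chosen after their values were seen, and some genes the rule names are not reported here. Same-numbered libraries deviated together (correlations 0.28, 0.59 and 0.37; differently numbered pairs from −0.45 to 0.12), so the numbers were taken to pair the animals, from the data and not the labels. Alternatives were other scalings, pseudocounts, filters, variance models, library weights, the block and left-out libraries.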

Additional observations from a re-analysis of the deposited data

How the results depend on the processing

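The count of 0 members called between the breeds held under all 19 alternatives (limma; smallest adjusted p of any member 0.288, smallest unadjusted p 0.0507, both for PSEN2 with the replicate block). The count of all genes called, 1, became 3 with a pseudocount of 0.1, 0 with a mean of at least 5 FPKM (at an unadjusted p under 0.05, 29 higher and 376 lower in limma) and 3 with both libraries numbered 2 left out. It ran from 1 to 4 when single libraries were left out, reaching 4 without Rongchang 1, Rongchang 2 or wild boar 1. With the replicate block it stayed at 1, and the block changed no call of a member.

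Of 133 member values under the alternatives, 108 kept their direction and 25 changed sign, none of them called. Other filters, other variance models and the replicate block leave a difference as it is. Their values could not change sign and are counted among the 108, so that count is no measure of stability. Under median scaling the differences were 0.006 for APP, 0.138 for CLU, 0.141 for BACE1, 0.044 for MAPT and 0.086 for SNCB, and the replicate block with median scaling gave the same values. Quantile normalization gave 0.125 for BACE1, 0.003 for MAPT and 0.062 for SNCB, and removal of mitochondrial genes 0.004 for BACE1. CLU turned to 0.083 under library quality weights and to 0.080 when both libraries numbered 2 were left out. With single libraries left out, APOE ran from −0.457 to 0.035, CLU from −0.178 to 0.221, BACE1 from −0.169 to 0.080 and SNCB from −0.219 to 0.044, while APP (−0.326 to −0.003), MAPT (−0.312 to −0.006) and PSEN2 (−0.356 to −0.158) stayed below 0. The cause was not tested, beyond the shift of the median gene that scaling removes. FPKM carry no depth, and 3 libraries per breed limit the precision.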

Other observations

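Genes of other neurodegenerative conditions were read from the same fit. Of 23 listed, 16 were matched and tested, 13 below 0 and 8 below the median gene, with a median of −0.12 and 0 past the threshold (limma). ATXN3, a deubiquitinase gene, did not overlap between the breeds (5.42 ± 0.162 and 4.55 ± 0.0923 FPKM, −0.21), and CHCHD10, a mitochondrial protein gene, stood at 41.6 ± 13.2 and 32.1 ± 1.02 (−0.32), with Rongchang 3 highest at 56.6. The most abundant of the list, the superoxide dismutase gene SOD1, was lowest in the libraries numbered 2 (226 and 213 FPKM against 308 to 396), as were APOE and CLU.

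TTR encodes transthyretin, itself an amyloid-forming protein and a product of the choroid plexus. It read 0.26, 3.01 and 0.96 FPKM in Rongchang animals 1, 2 and 3, and 1.34, 0.12 and 34.2 in the wild boars, so that wild boar 3 alone lay above 3.01 FPKM. The other choroid plexus markers matched, KCNJ13, OTX2 and CLIC6, were under 1 FPKM in all 6 libraries.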
